A study of Mus musculus with 6 samples.

Results

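Tumour necrosis factor (TNF) superfamily ligands and the TNF receptors were followed across the leukocytes of young and old mouse soleus muscle. The 10 genes were chosen by symbol, with no threshold on their values but with earlier results of these data known, among 31053 measured genes. There were 8 ligands (Tnf, Tnfsf9, Tnfsf11, Tnfsf12, Tnfsf13b, Tnfsf14, Ltb and Fasl) and 2 receptors (Tnfrsf1a and Tnfrsf1b), and all 10 had at least 20 UMIs (unique molecular identifiers, one per captured RNA molecule) in the kept cells. The question was which cells expressed the ligands and which bore the receptors, and whether these levels differed with age and with treatment.

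Soleus muscles of male C57BL/6 mice, which were 4 to 5 months old (young) or 20 to 22 months old (old), were pooled within each group. Control mice walked freely, HU mice had their hindlimbs unloaded, and reload mice were returned to normal loading for 4 days after HU. CD45+ DAPI− (live leukocyte) cells were sorted and measured by 10x Genomics 3' single-cell RNA sequencing, with 1 library for each of the 6 groups. The muscles within a library were pooled and no library had a replicate, so differences within a treatment or an age carry counting intervals but no test between animals.

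The 6 libraries held 1675 to 3676 barcodes and 5782054 to 22749375 UMIs, and 1494 to 2568 cells per library were kept, 12220 in all, with a median of 2539 to 7883 UMIs per kept cell. Between 4.12% and 33.3% of barcodes had more than 10% mitochondrial UMIs and were left out, with the highest shares in young reload (33.3%) and young HU (27.5%). The labels place the control libraries on another flow cell than the HU and reload libraries, so differences of control from HU or reload cannot be told apart from the run. No ratio of control to HU or reload is given, and levels printed side by side across these treatments carry this limit. The sample titles also open with a number that differs between the treatments and is shared by the young and old library of each. What this number stands for is not stated. Reload and HU share a flow cell but not this number, so their differences cannot be told apart from what it stands for. The 2 control libraries shared 40 barcodes, of which 36 were T cells in both libraries, against 3 to 9 for the other pairs of libraries. Clusters were named from marker genes, and "macrophage" and the other class names below stand for macrophage-like clusters and so on. In 3 clusters, 830 cells stayed unnamed. Endothelial cells, fibroblasts and pericytes or smooth muscle came mostly from the HU libraries and lacked the sorted marker, with Ptprc (CD45) detected in 1.45%, 1.88% and 0% of their cells (0 of 83 allows up to 3.61% with a UMI) against 67.2% of macrophages.

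TNF superfamily ligands are mostly made as trimeric membrane proteins, and several can be cut from the surface to act at a distance. Soluble TNF acts mainly through Tnfrsf1a (TNFR1), which carries a death domain and is found on most cells, while membrane TNF also engages Tnfrsf1b (TNFR2), which is found mainly on leukocytes. In skeletal muscle, TNF is known both as an early signal of repair and as a driver of wasting.

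The Tnf gene (chr17:35199381-35202007, minus strand, GRCm38/mm10) and the Ltb gene (chr17:35194439-35196320, plus strand) lie tail to tail with 3060 bases between their ends. Tnfsf9 (chr17:57105325-57107757, plus strand) and Tnfsf14 (chr17:57189492-57194177, minus strand) also lie on chromosome 17, with 81734 bases between them. Of the other members, Tnfsf11 is at chr14:78277445-78308043 (minus strand), Fasl at chr1:161780689-161788495 (minus strand), Tnfrsf1a at chr6:125349362-125362484 (plus strand) and Tnfrsf1b at chr4:145213463-145246870 (minus strand). Tnfsf12 (chr11:69686250-69695849, minus strand) shares its strand with the readthrough gene Tnfsfm13 and overlaps the antisense gene Tnfsf13os. Its reads cannot be separated with certainty from those of the readthrough gene. Tnfsf13b (chr8:10006467-10039072, plus strand) and Tnfsf9 each overlap an antisense gene.

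The 250 bases before the start of Tnf and the 182 bases before the start of Ltb are shown because these neighbouring genes had different source cells. They were taken from RefSeq (GRCm38.p6), at chr17:35202008-35202257 on the minus strand for Tnf and chr17:35194257-35194438 on the plus strand for Ltb. Capitals mark a TATAAA box for Tnf and, for Ltb, a match to the NF-κB (kappa B) consensus, searched on both strands and found here on the other one.
Tnf promoter: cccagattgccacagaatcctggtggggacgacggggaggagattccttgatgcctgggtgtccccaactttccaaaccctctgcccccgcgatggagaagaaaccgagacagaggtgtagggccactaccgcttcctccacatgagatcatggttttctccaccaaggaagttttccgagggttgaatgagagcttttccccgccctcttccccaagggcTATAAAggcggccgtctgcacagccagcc
Ltb promoter: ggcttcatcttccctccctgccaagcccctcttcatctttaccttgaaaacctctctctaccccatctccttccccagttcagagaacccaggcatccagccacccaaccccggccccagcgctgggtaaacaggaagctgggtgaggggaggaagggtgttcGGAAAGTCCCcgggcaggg
A TATAAA match was present in the 250 bases before 12.4% of 32851 annotated starts, and a kappa B match before 7.25%. Among 9 starts of 8 members (not Tnfsf9 and Tnfsf12), TATAAA was found for Tnf and Tnfsf11 and the kappa B match for Ltb alone. A match is a run of letters and not a measured binding site.

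Tnf RNA is known for an AU-rich element in its 3' untranslated region, which binds decay factors such as the Zfp36 protein. The stretch below was read on the minus strand at chr17:35199681-35199710 from GENCODE vM21 (GRCm38), with the overlapping TTATTTATT nonamers in capitals.
Tnf AU-rich element: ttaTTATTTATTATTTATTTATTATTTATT
This window holds 4 nonamers, and the 764 bases of the Tnf 3' untranslated region hold 5. Tnfsf13b has 1 and the 8 other members have 0.

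Tnf, the founding cytokine of the family, was mainly a macrophage transcript. Levels are given as UMIs of the gene per 1000000 UMIs of a class (CPM) summed over the 6 libraries, and they are compared between cells but not between genes. In such sums, fewer expressing cells and less RNA per cell cannot be told apart. Tnf stood at 635 CPM in macrophages, 579 in mast cells, 331 in γδ T cells and 189.7 in type 2 dendritic cells. It was 89.6 CPM in neutrophils, 60.2 in endothelial cells, 49.4 in monocytes, 40.9 in T cells, 34.8 in fibroblasts (36 UMIs) and 4.75 in NK cells (5 UMIs). The levels of monocytes and T cells lay within the range of the fibroblast libraries, 0 to 57.5 CPM. The ranges over libraries overlapped between macrophages and mast cells, and between each further pair of neighbours among the 6 highest classes. A Tnf UMI was found in 65.2% of macrophages, with a median of 6070 UMIs per cell, and in 1.88% of fibroblasts, which should lack the gene and had a median of 3068 UMIs. With every cell thinned to 2000 UMIs these shares were 47.4% and 1.95%.

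**Figure D1:**
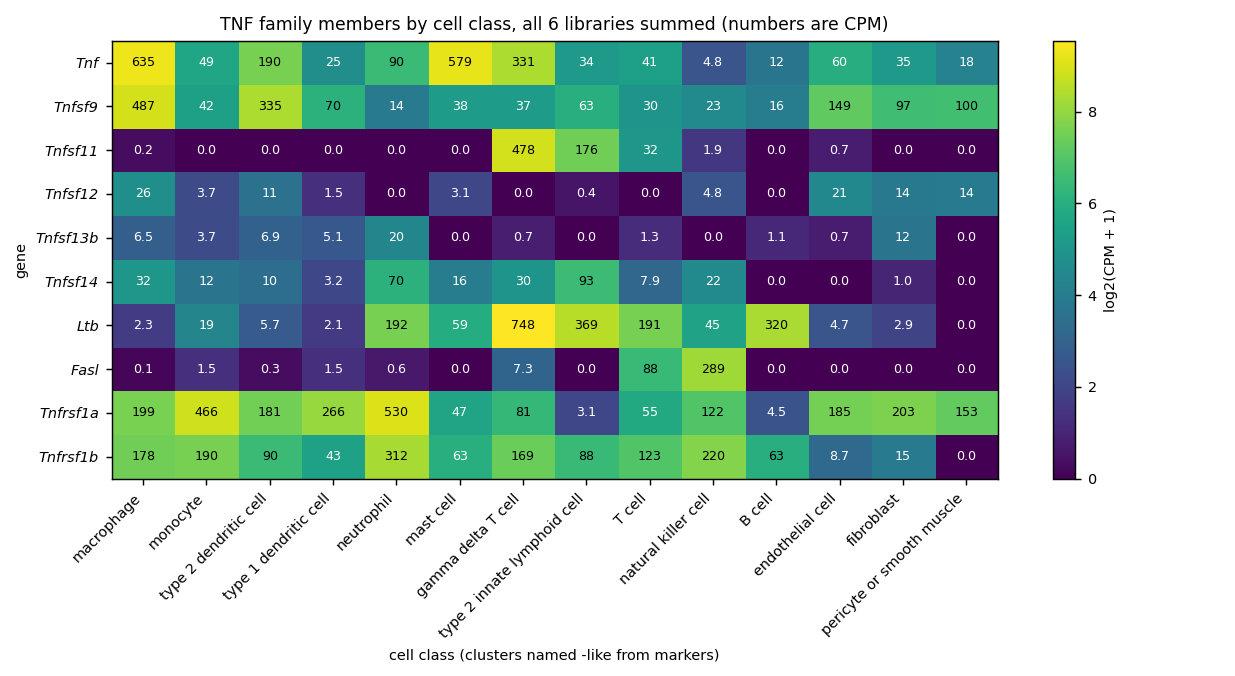
Levels of the 10 members (rows) in the named cell classes (columns), summed over the 6 libraries. Colour is log2(CPM + 1) and the printed numbers are CPM. Tnf and Tnfsf9 peaked in macrophages, Tnfsf11 and Ltb in γδ T cells and Fasl in NK cells, while the receptors Tnfrsf1a and Tnfrsf1b were highest in neutrophils.

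Macrophages held 76.7% of all 24121 Tnf UMIs and type 2 dendritic cells 9.37%. By library, the macrophage share was 61.9% (young) and 46.7% (old) in control, 43.2% (young) and 61.3% (old) in HU, and 90.2% (young) and 81.7% (old) in reload. The share therefore stood highest in both reload libraries, in which macrophages were also most numerous, with 1441 young and 1129 old cells against 295 to 494 in each other library.

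Tnfsf9, the ligand (4-1BBL) that co-stimulates lymphocytes, was also highest in macrophages. It reached 487 CPM in macrophages, 335 in type 2 dendritic cells, 149 in endothelial cells and 96.7 in fibroblasts, against 37.5 in mast cells and 37.4 in γδ T cells, and macrophages held 67.8% of its 20933 UMIs. Type 2 dendritic cells held 19.1% over all libraries, but 47.4% in young HU, where the macrophage share was 25.8%. Because 17.8% of fibroblasts had a Tnfsf9 UMI, they do not serve as a negative class for it; the share in macrophages was 53.6%. Tnfrsf9, its receptor, was highest in NK cells (213 CPM) and type 2 innate lymphoid cells (ILC2, 121 CPM), with 32.4 in T cells.

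Tnfsf11 (RANKL, the cytokine that drives osteoclast formation) was a transcript of γδ T cells and ILC2. It stood at 478 CPM in γδ T cells, 176 in ILC2 and 32.4 in T cells, and the library ranges of ILC2 and T cells did not overlap. In NK cells there were 2 UMIs and in the 4212 macrophages 7. γδ T cells held 55.9% of the 1165 UMIs and ILC2 33.6%. A UMI was seen in 46.8% of γδ T cells (median depth 3186.5 UMIs) and in 28.7% of ILC2 (3211 UMIs), against 0 of 213 fibroblasts (3068 UMIs), which allows up to 1.41% of cells with a UMI. Tnfrsf11a, its signalling receptor RANK, was highest in macrophages at 31.5 CPM, and Tnfrsf11b, the decoy receptor, had 7 UMIs, all in fibroblasts.

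Ltb (lymphotoxin β, which anchors lymphotoxin α to the membrane) was found mainly in lymphocytes and also in neutrophils. γδ T cells had 748 CPM, ILC2 369, B cells 319.7, neutrophils 192 and T cells 191, while macrophages had 2.26. A UMI was seen in 72.3% of γδ T cells, 53.2% of ILC2 and 43.9% of B cells (median 2322.5 UMIs), against 1.41% of fibroblasts. γδ T cells held 28.9% of its 3520 UMIs, ILC2 23.4% and T cells 16.5%. Its receptor Ltbr was mainly a transcript of myeloid and stromal cells, with 82.6 CPM in monocytes, 64.8 in fibroblasts, 46.2 in neutrophils and 41.4 in macrophages. Although Tnf and Ltb are neighbours in the genome, γδ T cells were the one class among the 3 highest for both.

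Fasl, the ligand by which cytotoxic lymphocytes kill through Fas, was largely a transcript of NK and T cells. It stood at 289 CPM in NK cells, 88.4 in T cells and 7.34 in γδ T cells, and the library ranges of these 3 classes did not overlap. NK cells held 49.5% of 614 UMIs and T cells 44.0%. A UMI was seen in 53.3% of NK cells (median 3121 UMIs) and in 21.9% of T cells (3083 UMIs), against 0 of 346 B cells (2322.5 UMIs), which allows up to 0.867% of cells with a UMI. Fas, its death receptor, was highest in endothelial cells (255 CPM) and neutrophils (156 CPM), followed by pericytes or smooth muscle (88.9 CPM) and monocytes (43.8 CPM).

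Tnfsf14 (LIGHT, which binds Ltbr and Tnfrsf14) had several sources. ILC2 had 93.3 CPM, neutrophils 69.9, macrophages 32.1, γδ T cells 30.1 and NK cells 21.9. Macrophages held 56.5% of the 1655 UMIs, from 83.7% in young reload and 74.0% in old reload to 4.17% in young HU. A UMI was seen in 22.5% of ILC2, 13.7% of macrophages and 10.5% of neutrophils (median 1389.5 UMIs), against 0.469% of fibroblasts. Tnfrsf14, a receptor for it, had 105 UMIs in all and reached at most 3.95 CPM in any class.

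Tnfsf12 (TWEAK) and Tnfsf13b (BAFF, a survival factor for B cells) were low. Tnfsf12 was 25.8 CPM in macrophages, 20.7 in endothelial cells, 14.2 in pericytes or smooth muscle and 13.5 in fibroblasts, with 0 UMIs in B, T and γδ T cells and in neutrophils. Its receptor Tnfrsf12a (Fn14) was highest in fibroblasts at 138 CPM, followed by macrophages at 81.8. Tnfsf13b stood at 19.7 CPM in neutrophils, 11.6 in fibroblasts and 6.49 in macrophages, and its share of cells with a UMI was 3.36% in neutrophils, 4.06% in macrophages and 5.16% in fibroblasts. These shares do not separate leukocyte expression from background. Of its receptors, Tnfrsf13c was highest in B cells (179 CPM), Tnfrsf13b was 40.1 in B cells and 28.4 in macrophages, and 187 of 223 Tnfrsf17 UMIs were in macrophages.

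**Figure D2:**
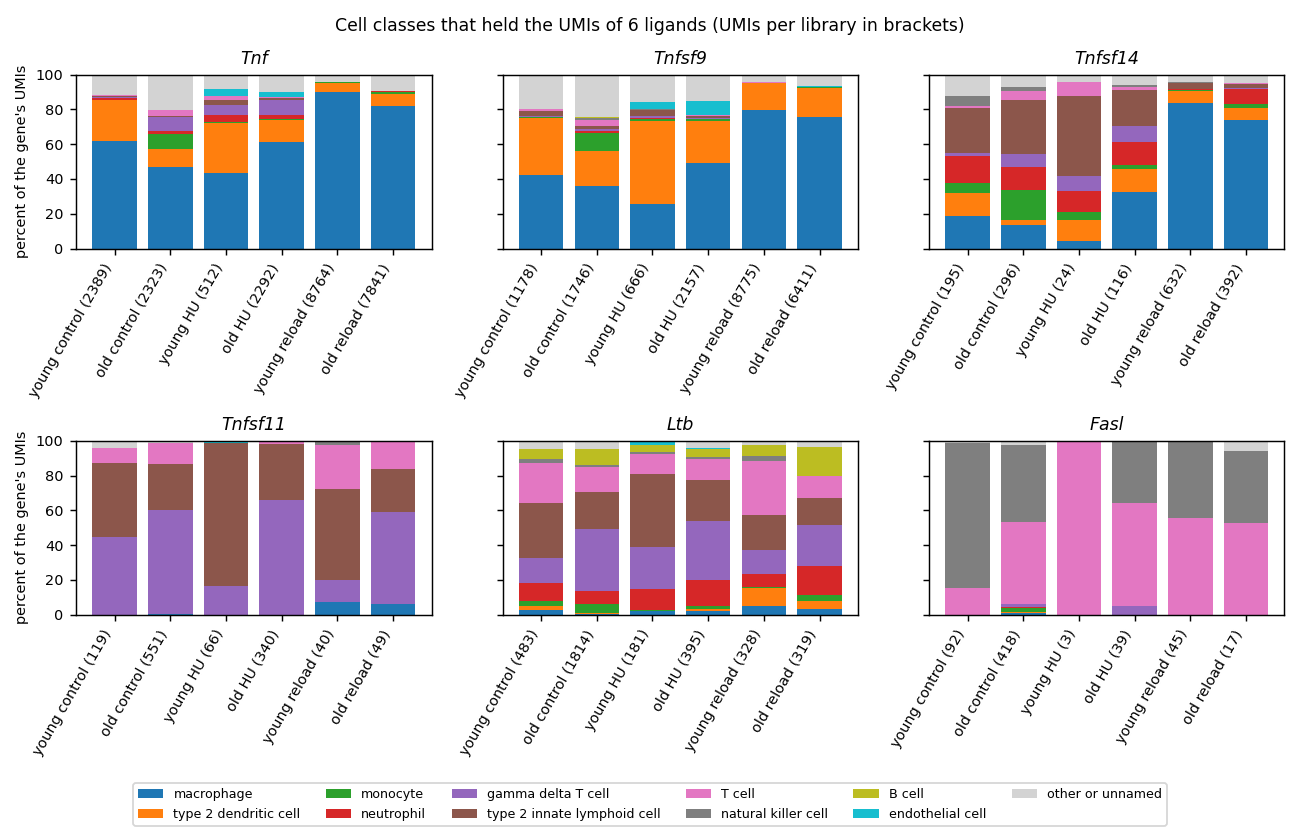
Share of each of 6 ligands' UMIs (percent, vertical axis) held by the cell classes in each library, with the UMIs of the library in brackets. Macrophages took 90.2% of Tnf and 83.7% of Tnfsf14 in young reload, and the few Tnfsf14 UMIs of young HU were mostly from other classes.

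The receptors divided the classes differently. Tnfrsf1a (TNFR1) was highest in neutrophils (530.4 CPM) and monocytes (466 CPM), followed by type 1 dendritic cells (266 CPM), fibroblasts (203 CPM), macrophages (199 CPM), endothelial cells (185 CPM) and type 2 dendritic cells (181 CPM). The ranges over libraries did not overlap between monocytes and type 1 dendritic cells. It was nearly missing from 2 lymphocyte classes, with 4.46 CPM in B cells and 3.14 in ILC2, against 122 in NK cells, 81.4 in γδ T cells and 55.4 in T cells. A Tnfrsf1a UMI was seen in 79.4% of monocytes (median 6138.5 UMIs), 62.1% of macrophages and 53.7% of neutrophils, against 0.289% of B cells.

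Tnfrsf1b (TNFR2) was high in neutrophils (312 CPM), NK cells (219.6 CPM), monocytes (189.8 CPM), macrophages (178 CPM), γδ T cells (169 CPM) and T cells (123 CPM). ILC2 had 87.9 CPM and B cells 63.5, so these 2 classes carried Tnfrsf1b with almost no Tnfrsf1a. Fibroblasts (14.5 CPM), endothelial cells (8.70 CPM) and pericytes or smooth muscle (0 UMIs) had the reverse, with Tnfrsf1a at 203, 185 and 153 CPM. A Tnfrsf1b UMI was seen in 60.02% of monocytes and 49.1% of macrophages, against 4.23% of fibroblasts.

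Levels between old and young were compared within each treatment. A ratio was called past the fold rule when its log2 value was at least 0.5 in size, its exact 95% interval for Poisson counts excluded 0, and both libraries together held at least 20 UMIs and each at least 20 cells of the class. With 1 library per group such a call compares 2 libraries and not the ages. The rule was passed by 15 of 56 measured pairs of a member and a class in control (11 higher and 4 lower in old), 20 of 38 in HU (17 higher and 3 lower) and 12 of 35 in reload (2 higher and 10 lower). Over all genes it was passed by 15.5%, 18.5% and 11% of such pairs. Classes of 1 library and members are not independent of each other.

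In macrophages, Tnf was 564 CPM (young) and 584 (old) in control, 136 (young) and 635 (old) in HU, and 636 (young) and 763 (old) in reload. Young HU was low and the other 5 libraries lay between 564 and 763 CPM. Old over young, the log2 ratio was 2.23 in HU (interval 2.02 to 2.44), 0.05 in control and 0.26 in reload (0.22 to 0.31).
Tnfsf9 followed with 189.7, 339, 106, 481, 561 and 578 CPM in the same order of libraries. Its log2 ratio was 0.84 in control (0.67 to 1.01) and 2.19 in HU (1.95 to 2.43). It was highest in both reload libraries and again lowest in young HU. Tnfsf14 was 14.1, 21.6, 0.614 (1 UMI), 17.2, 42.5 and 34.6 CPM, with a log2 ratio in HU of 4.80 (2.24 to 10.15). Tnfrsf1b was 192, 155, 32.6, 73.6, 199 and 203 CPM, with a log2 ratio in HU of 1.18 (0.72 to 1.65). Tnfrsf1a lay between 165 and 274 CPM in the 6 libraries and Tnfsf12 between 21.3 and 34.0, and neither passed the rule between ages.

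**Figure D3:**
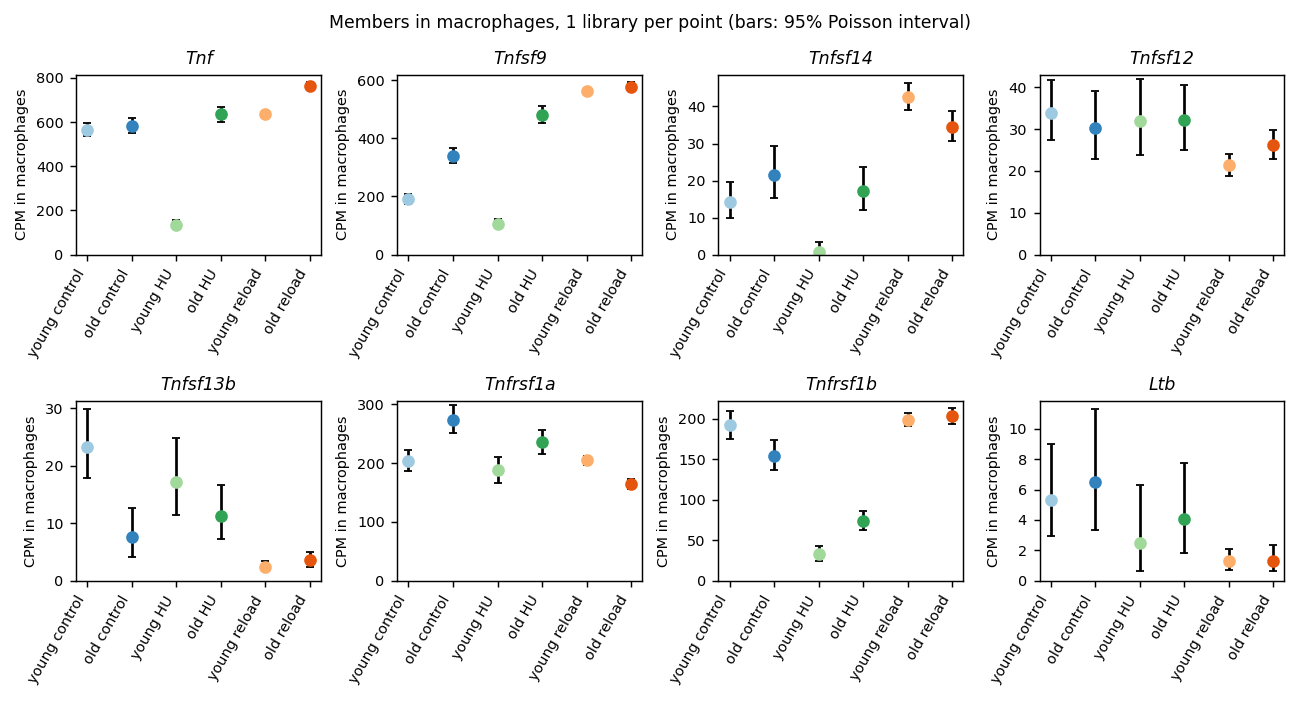
CPM (vertical axis, from 0) of the 8 members measured in macrophages, with 1 point per library and bars for the 95% Poisson interval. Tnf stood at 136 CPM and Tnfrsf1b at 32.6 in young HU, while Tnfsf13b was highest in young control (23.3 CPM) and young HU (17.2 CPM).

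In HU, 4 of 7 measured members (Tnf, Tnfsf9, Tnfsf14 and Tnfrsf1b) were past the fold rule in macrophages, all higher in old, against 30.5% of all genes in this comparison (11.5% higher). The median log2 ratio of the 7 measured members was 1.18 against −0.16 for all genes. In control, Tnfsf9 was higher and Tnfsf13b lower in old (7.54 against 23.3 CPM, log2 ratio −1.63, −2.58 to −0.77), 2 of 8 members against 13.7% of all genes. Within the cluster led by Hspa1b, which was the most frequent one in young control, Tnfsf13b was 28.9 CPM in young and 31.3 in old (8 UMIs), a log2 ratio of 0.11 (−1.18 to 1.20). In reload, 0 of 8 members passed against 9.04% of all genes, and the median was 0.04.

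Different macrophage clusters held most cells in the groups. In young control it was a cluster led by Hspa1b and Hspa1a (232 cells), in old control and in both HU libraries a cluster led by Cd209f, Fcna and Vsig4 (168, 372 and 375 cells), and in both reload libraries a cluster led by Il10, Cxcl1 and Cxcl2 (1127 and 842 cells). Young HU had at least 20 cells in the Cd209f and Hspa1b clusters only. Its Tnf level was the lowest of all libraries in the Cd209f cluster but not in the Hspa1b cluster, where young reload was the lowest. In the Cd209f cluster, Tnf was 287 CPM (young) and 536 (old) in control, 60.2 (young) and 514 (old) in HU, and 414 (young) and 545 (old) in reload. There the log2 ratio between the ages was 3.096 in HU (2.75 to 3.46), 0.90 in control and 0.40 in reload. In the Hspa1b cluster, Tnf was 382 CPM in young HU and 1327 in old HU, a log2 ratio of 1.80, and in reload it was 334 (young) and 1235 (old), a log2 ratio of 1.88. In the Il10 cluster, which held most of the reload macrophages, the reload ratio was 0.22. In control, the old over young log2 ratios of 0.90 in the Cd209f cluster and 0.86 in the Hspa1b cluster stood beside 0.02 in the Il10 cluster and 0.05 over all macrophages.

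**Figure D4:**
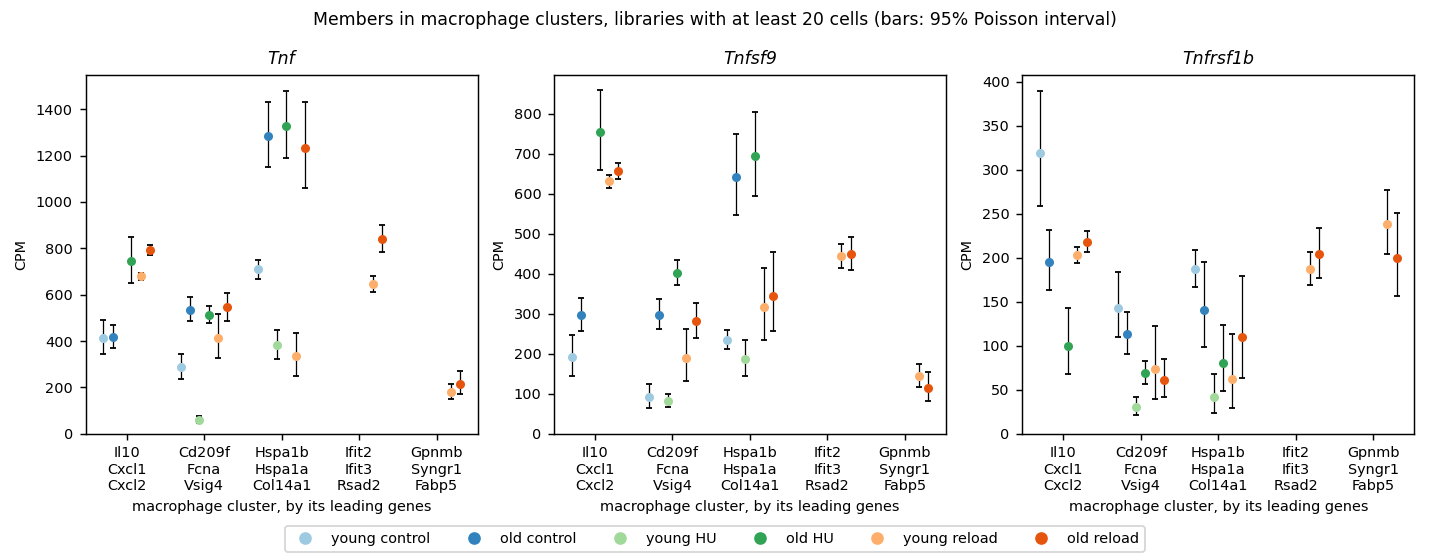
CPM of 3 members (vertical axes) in the 5 macrophage clusters, named by their leading genes, for libraries with at least 20 cells of the cluster, with bars for the 95% Poisson interval. Young HU was the lowest library for Tnf in the Cd209f cluster (60.2 CPM), and young reload was lowest for Tnf in the Hspa1b cluster (334 CPM).

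The stress and early response genes of macrophages also differed between libraries. Fos was at 2011 (young) and 1604 (old) CPM after HU, with 656 to 943 elsewhere, and Hspa1a was 5598 CPM in young control, 1725 in young HU and 188 to 645 in the other 4. The summed level of the 10 macrophage markers was 32151 CPM in young HU and 15932 to 23166 CPM in the other libraries. Between control and the other treatments these levels cannot be told apart from the run. Hspa1a was higher in young than in old, in control and in HU, in every class with at least 20 cells in both libraries. In control it was 2504 (young) and 17.1 (old) CPM in NK cells, 2003 and 56.7 in ILC2, 2523 and 167 in γδ T cells and 1269 and 112 in T cells. In HU it was 2707 and 190 CPM in γδ T cells and 1212 and 98.4 in ILC2. The part of these differences in the levels and ratios of Tnf and the other members, in any class, was not tested.

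Type 2 dendritic cells, which were a single cluster, had Tnf at 181, 217, 134, 256, 146 and 238 CPM in young control, old control, young HU, old HU, young reload and old reload. Each old library was above its young one, with log2 ratios of 0.93 in HU (0.64 to 1.23) and 0.70 in reload (0.52 to 0.88), both past the rule. Macrophage markers in these cells summed to 3912, 2143, 2578, 2787, 2007 and 2752 CPM in the same order of libraries. Their part in the ratios was not tested. Tnfsf9 was 127, 301, 286, 469, 446 and 435 CPM, with a log2 ratio of 1.25 in control (1.04 to 1.46) and 0.71 in HU. With every cell weighted equally the HU value was 0.43, below the rule's minimum. Of the receptors, Tnfrsf1b was lower in old in control (−0.56) and reload (−0.51), and Tnfrsf1a was higher in old in HU (0.51) and lower in reload (−0.58). In all, 2 of 7 members passed in control, 3 of 6 in HU and 4 of 7 in reload, against 16.4%, 16.6% and 14.5% of all genes.

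In γδ T cells, which as a class were found mainly in the old libraries (210 of the cells in old control and 107 in old HU), Tnf was 105 CPM in young control and 242 in old control, a log2 ratio of 1.21 (0.42 to 2.11). Ltb was 524 and 872 CPM, a ratio of 0.74 (0.38 to 1.11), and 2 of 7 members passed in control against 10% of all genes. In HU, Tnfsf11 was 204 CPM in young (11 UMIs) and 775 in old (225 UMIs), a ratio of 1.93 (1.06 to 2.95). Ltb went the other way in HU, at 797 CPM in young and 462 in old (−0.79), and Tnfrsf1b had 0 UMIs in young and 26 in old. The 24 young HU cells gave 3 of 5 measured members past the rule against 13.2% of all genes.

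ILC2 held the other source of Tnfsf11. In control it was 78.4 CPM in young and 159 in old, a log2 ratio of 1.02 (0.55 to 1.51), and Ltb was 235 and 419 CPM (0.83, 0.56 to 1.11). These were 2 of 6 measured members against 13.5% of all genes. In HU, Tnfsf11 was 350.0 CPM in young and 366 in old and did not pass, while Ltb (−0.64) and Tnfsf9 (−1.20) were lower in old, 2 of 5 members against 13.5%. In reload, 0 of 4 passed against 9.92%. The reload libraries held only 33 and 22 ILC2.

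Fasl in T cells was 27.6 CPM in young control (14 UMIs), 110.5 in old control (196 UMIs), 77.5 in old HU, 133 in young reload (25 UMIs) and 38.9 in old reload (9 UMIs). Old was above young in control, with a log2 ratio of 1.999 (1.22 to 2.90), and below it in reload (−1.78, −3.06 to −0.63). Without the cells whose barcodes were in both control libraries, the control ratio was 2.02. Ltb in T cells was lower in old in control (−0.60, or −0.64 without the shared barcodes) and in reload (−1.62), and with every cell weighted equally the control value was −0.22. Of the measured members, 2 of 7 passed in control and 3 of 3 in reload, against 14.2% and 16.2% of all genes. NK cells had Fasl at 236 CPM in young control and 353 in old control (0.58, 0.19 to 0.98), 1 of 4 members against 10.6% of all genes.

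Monocytes had little Tnf or Tnfsf9 in young control. Tnf was 12.1 CPM there (10 UMIs) and 52.2 in old control (195 UMIs), a log2 ratio of 2.11 (1.20 to 3.20), and Tnfsf9 was 4.82 (4 UMIs) and 49.5 (185 UMIs), a ratio of 3.36 (1.98 to 5.25). The libraries with at least 20 monocytes other than young control had 52.2 to 67.1 CPM of Tnf. Within the cluster led by Chil3, Saa3 and Hp, which held 74 of 119 young and 283 of 381 old control monocytes, the ratios were 2.22 and 3.07. In reload, Tnfsf9 was lower in old (−1.03). The members past the rule were 2 of 6 in control and 1 of 4 in reload, against 20.5% and 9.28% of all genes. In old monocytes between reload and HU, 0 of 4 members passed over the whole class, against 14.5% of all genes. The mix of monocyte clusters differed there, with 35 cells of the Chil3 cluster and 56 of a cluster led by Ace in HU and 165 and 84 in reload. Within the Chil3 cluster the ratio of Tnf was 1.81 (0.20 to 4.12, from 3 UMIs in HU and 69 in reload) and that of Tnfsf9 −1.16 (−2.03 to −0.21), and within the Ace cluster that of Tnf was −1.56 (−2.70 to −0.46). Tnfrsf1a, between 397 and 499.8 CPM, and Tnfrsf1b, between 151 and 204 CPM, did not pass over all monocytes in any of these comparisons.

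In neutrophils, Tnfsf14 was lower in old control (50.2 against 92.9 CPM, −0.89), 1 of 5 measured members against 30.5% of all genes. Tnfrsf1a was higher in old HU (608 against 402 CPM, 0.60), 1 of 4 against 21.8%, with a median of 0.21 for all genes. In reload, Tnf (−1.23) and Ltb (−1.18) were lower in old, 2 of 5 against 11.4%, on 12 and 24 UMIs in young. Type 1 dendritic cells had Tnf higher in old in HU (2.49, from 2 and 23 UMIs) and in reload (1.49), where the value was 0.17 with doublets kept. Tnfsf9 was higher in old in HU (1.44) and lower in reload (−1.24), and Tnfrsf1a was higher in HU (1.23). These were 3 of 3 measured members in HU, 2 of 4 in reload and 0 of 4 in control, against 15.7%, 9.39% and 15.4% of all genes. Macrophage markers summed to 1378 CPM in the type 1 dendritic cells of old HU and 37.5 in those of young HU. They were 440 CPM in old and 91.4 in young reload, and 841 in old and 1572 in young control. The part of these markers in the ratios was not tested.

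Endothelial cells could be compared in HU alone (323 young and 193 old cells). Tnf was 22.6 CPM in young and 132 in old, a log2 ratio of 2.55 (1.79 to 3.36), and Tnfsf9 was 32.1 and 335, a ratio of 3.38 (2.79 to 4.03). Tnfrsf1a differed less, at 169 and 181 CPM. With Tnfsf12 (1.23), 3 of 4 members passed against 12.2% of all genes. With every cell weighted equally the Tnfsf9 ratio was 2.57. Early response genes were also higher in old, Fos at 582 and 2495 CPM and Egr1 at 682 and 2835 CPM in young and old, and their part in the ratios was not tested. Macrophage markers were 491 CPM in young and 606 in old, and neutrophil markers 20.2 and 96.5 CPM. In fibroblasts, Tnfsf9 was also higher in old HU (177 against 90.3 CPM, 0.97), 1 of 2 measured members against 13.7% of all genes. In pericytes or smooth muscle 0 of 2 passed against 10.8%. In B cells, Tnfrsf1b was higher in old control (2.02, from 2 and 34 UMIs), 1 of 2 measured members against 9.57% of all genes.

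**Figure D5:**
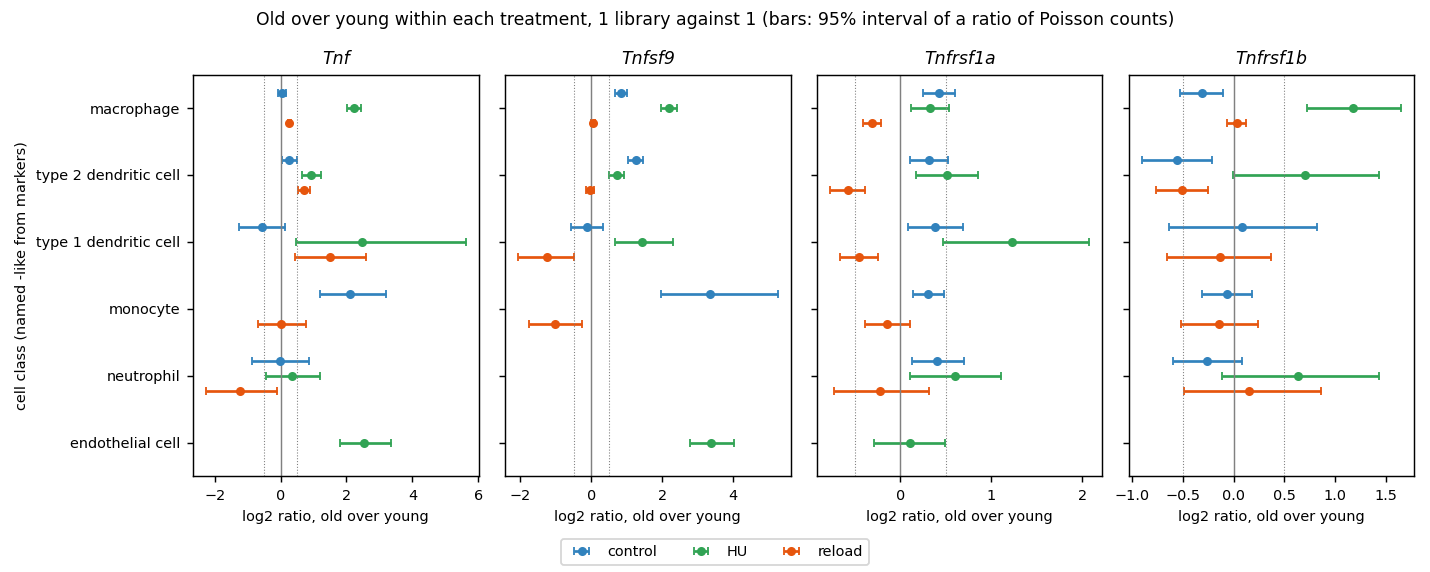
Log2 ratio of old over young (horizontal axes) for 4 members by cell class, with 1 point per treatment and bars for the 95% interval of a ratio of Poisson counts. Dotted lines mark a log2 ratio of 0.5 either way. In macrophages Tnf was near 0 in control, 2.23 in HU and 0.26 in reload.

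Mast cells had Tnf at 89.5 CPM in old control, 999.8 in old HU and 749.8 in young reload, the 3 libraries with at least 20 of them. These libraries differ in treatment, in age or in both, and the control library also in flow cell. Macrophage markers in the same cells summed to 470.1, 6166 and 2926 CPM, and their part in these levels was not tested.

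Age was also tested across the 3 treatments with edgeR's quasi-likelihood test on the class sums, with treatment as a term and Benjamini-Hochberg adjustment over all genes of a class. It could be run for the 5 classes with at least 20 cells in every library, and each fit left 2 residual degrees of freedom. No member was called in any class. In macrophages 0 of 9151 genes were called (0%), with 419 at an unadjusted p under 0.05, and DESeq2 called 8. Tnf had a log2 fold change of 0.85 (SE 0.46, adjusted p 0.884 by edgeR) and Tnfsf9 of 1.04 (SE 0.42, adjusted p 0.884 by edgeR). In type 2 dendritic cells, where 0 of 8046 genes were called (216 at an unadjusted p under 0.05, 2 by DESeq2), Tnf was 0.62 (SE 0.21) and Tnfsf9 0.63 (SE 0.25). Neutrophils and ILC2 each had 0.115% of genes called and type 1 dendritic cells 0.0174%. The fit takes an age difference to be the same in every treatment, whereas the macrophage Tnf ratios were 0.05, 2.23 and 0.26 in control, HU and reload.

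Reload was compared with HU within each age, with the limit that the sample titles number these treatments differently. In young macrophages, Tnf (136 to 636 CPM, log2 ratio 2.23), Tnfsf9 (106 to 561 CPM, 2.41), Tnfsf14 (0.614 to 42.5 CPM, 6.11, 3.63 to 11.42) and Tnfrsf1b (32.6 to 199 CPM, 2.61) were higher in reload, and Tnfsf12 (−0.58) and Tnfsf13b (17.2 to 2.49 CPM, −2.79) were lower. These 6 of 8 members compare with 45.8% of all genes. In old macrophages, Tnfsf14 (1.01) and Tnfrsf1b (1.46) were higher, and Tnfsf13b (−1.66), Ltb (−1.63) and Tnfrsf1a (−0.51) lower, 5 of 8 against 30% of all genes. Tnf in old macrophages was 635 CPM in HU and 763 in reload, a log2 ratio of 0.26, below the minimum of the rule. The Cd209f and Hspa1b clusters each had at least 20 cells in all 6 libraries. In the Cd209f cluster the Tnf ratio of reload over HU was 2.78 in young and 0.08 in old. In the Hspa1b cluster it was −0.19 (−0.67 to 0.27) in young and −0.10 (−0.37 to 0.16) in old. The higher young class level of Tnf in reload was therefore not seen within the Hspa1b cluster. The class sums set HU macrophages, mostly of the Cd209f cluster, against reload macrophages, mostly of the Il10 cluster. In old mice the Tnfrsf1b ratio was −0.18 (−0.77 to 0.38) within the Cd209f cluster, 0.46 (−0.58 to 1.48) within the Hspa1b cluster and 1.13 (0.61 to 1.70) within the Il10 cluster. Tnfsf13b within the old Cd209f cluster was −0.18 (−1.79 to 1.20). Tnfsf14 was −2.98 there (−8.34 to −0.35, from 22 UMIs in HU and 1 in reload) and −0.21 (−1.01 to 0.72) within the old Il10 cluster, so the higher class level of Tnfsf14 in old reload was not seen within either cluster. In young mice the Cd209f cluster gave 1.29 (0.28 to 2.21) for Tnfrsf1b and −1.77 (−7.14 to 0.86) for Tnfsf13b, which had 1 UMI in reload.

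Across both ages, edgeR called reload against HU for 1072 of 9151 genes in macrophages (11.7%, 516 higher and 556 lower in reload), with age as a term. Tnfrsf1b was called higher, with a log2 fold change of 1.999 (SE 0.41, adjusted p 0.0321 by edgeR), and Tnfsf13b lower, −2.14 (SE 0.53, adjusted p 0.0473 by edgeR). These calls are of class sums in which different clusters held most HU and reload cells. Within the Cd209f cluster the Tnfrsf1b ratio was 1.29 in young and −0.18 in old. Within the Hspa1b cluster it was 0.56 (−0.74 to 1.79) in young and 0.46 in old, and within the old Il10 cluster 1.13. The Tnfsf13b ratio within the Cd209f cluster was −1.77 in young and −0.18 in old, from 1 and 6 UMIs in reload. The part of the cluster mix in these calls was not tested. Tnf (1.13, SE 0.56, adjusted p 0.211), Tnfsf9 (1.33, SE 0.52, adjusted p 0.132) and Tnfsf14 (2.20, SE 0.72, adjusted p 0.0914) did not pass in the same edgeR fit, and neither did Ltb, Tnfsf12 or Tnfrsf1a. Such negatives were not stable in every setting. Among the member values followed through the alternative fits, for age and reload over the classes, 21 results went from not called to called. Another 10 went from called to not called, and 182 stayed the same. Tnfrsf1b was called in 13 of 15 fits and Tnfsf13b in 10. The Tnfrsf1b call was lost without young reload (1.84, adjusted p 0.118 by edgeR) or without old control (adjusted p 0.0501), and it was 1.36 (adjusted p 0.0391) without young HU. The Tnfsf13b call was lost at a clustering resolution of 0.4 (adjusted p 0.055 by edgeR), without old control (0.0501), young HU (0.132), old HU (0.0741) or young reload (0.329). The count of called genes in macrophages was 476 without young control, 301 without old control, 314 without young HU, 2063 without old HU, 113 without young reload and 652 without old reload.

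In type 1 dendritic cells, Tnfsf9 was 120.1 and 325 CPM in young and old HU and 35.5 and 15.0 in young and old reload, so both reload libraries were below both HU libraries. It was called lower, with a log2 fold change of −3.37 (SE 0.53, adjusted p 0.0176 by edgeR), in a class where 43 of 5741 genes were called (0.749%). The call was lost with doublets kept (−1.89, adjusted p 0.1201 by edgeR) and without young reload (0.325) or old reload (0.159). Within each age the log2 ratios were −1.76 in young and −4.44 in old, and −0.06 and −2.89 with doublets kept. Tnf (−2.53, SE 0.70, adjusted p 0.109 by edgeR) was not called, and its old ratio of −2.27 was −0.34 with doublets kept. Macrophage markers in this class summed to 1378 CPM in old HU and 440 in old reload, and to 37.5 in young HU and 91.4 in young reload. The part of these markers in the Tnfsf9 and Tnf ratios was not tested. Tnfrsf1a (1.20) and Tnfrsf1b (2.58, from 1 and 101 UMIs) were higher in young reload than in young HU, and 3 of 3 members in young and 2 of 4 in old were past the fold rule against 14% and 21.1% of all genes.

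In ILC2 of both ages and in old γδ T cells, the levels of Tnfsf11 and Tnf were lower in reload than in HU. In ILC2, Tnfsf11 was 350.0 and 366 CPM in young and old HU and 171 and 133 in young and old reload, log2 ratios of −1.03 and −1.46. Tnf was 104 and 78.0 CPM in HU and 32.6 and 11.1 in reload (4 and 1 UMIs), ratios of −1.67 and −2.81. By edgeR neither was called (Tnfsf11 −1.35, SE 0.38, adjusted p 0.0677 by edgeR and Tnf −2.13, SE 0.64, adjusted p 0.0918 by edgeR), in a class where 81 of 2600 genes were called (3.12%). Under the fold rule 3 of 5 members passed in each age, against 26.9% of all genes in young and 20.2% in old. In old γδ T cells, Tnf was 703 CPM in HU and 146 in reload (−2.27, −3.13 to −1.51) and Tnfsf11 775 and 253 (−1.61), while Ltb was higher (0.64), 3 of 6 members against 18% of all genes. The old reload library had 24 γδ T cells and the young one 10, too few for a comparison.

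In type 2 dendritic cells, Tnfrsf1b was 25.3 and 41.3 CPM in young and old HU and 118 and 83.3 in young and old reload, with log2 ratios of 2.23 and 1.01, and Tnfsf13b was 22.6 and 12.6 CPM in HU and 0.329 (1 UMI) and 3.71 in reload. Neither was called by edgeR (Tnfrsf1b 1.44, SE 0.37, adjusted p 0.103 by edgeR and Tnfsf13b −3.29, adjusted p 0.1005 by edgeR), in a class with 2 of 8046 genes called (0.0249%). Under the fold rule 7 of 8 members in young and 3 of 7 in old passed, against 38.9% and 24.4% of all genes. In neutrophils Tnfrsf1b was 172 and 267 CPM in HU and 392 and 437 in reload, ratios of 1.19 and 0.71. Tnf was lower in old reload than in old HU (−1.26), or −0.48 with doublets kept. Under the rule 3 of 4 members in young and 3 of 5 in old passed, against 33.5% and 21% of all genes, and none was among the 0.269% called by edgeR. T cells had Tnfrsf1b higher in old reload than old HU (1.52), 1 of 5 members against 18.6% of all genes. B cells had Ltb higher (0.85), 1 of 1 measured member against 19.6%.

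Young HU was the lowest of the 6 libraries for Tnfrsf1b in 5 of 5 classes that had all 6 libraries, namely macrophages, type 1 and type 2 dendritic cells, neutrophils and ILC2. The same held for Tnfsf14 in 4 of 4 classes and for Tnfrsf1a in 3 of 4. Tnf was lowest in young HU in 2 of 5 classes and Tnfsf9 in 1 of 5. Tnfsf13b was highest in young HU in 3 of 4. The highest library for Tnfrsf1b varied, being old reload in macrophages and neutrophils, young reload in type 2 dendritic cells and ILC2, and old control in type 1 dendritic cells. These classes share their libraries and are not independent of each other, and the order of control against the rest cannot be told apart from the flow cell. How often young HU was the lowest or highest library over all genes was not counted. Some of these lows lay near 0, with Tnfrsf1b at 0 CPM in ILC2 and 7.51 in type 1 dendritic cells (25 cells) and Tnfsf14 at 0.614 in macrophages. The median depth of young HU cells, 2548 UMIs, was close to that of old HU (2539) and below the other libraries.

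The proteins that act with the members were counted from lists chosen with earlier results known. In macrophages between reload and HU, 10 of 45 genes of the other lists were called by edgeR, against 11.7% of all genes. Of 25 genes of TNF receptor signalling, 4 were higher in reload and 0 lower, namely Traf1 (2.08) and Traf3 (1.63), which are adaptors at the receptors, Tnip1 (1.59), a partner of the inhibitor A20, and Cflar (1.51), which blocks caspase-8. Of 8 genes of shedding and RNA decay, Adam17 (1.35), the protease that releases TNF, and its cofactor Rhbdf2 (1.47) were higher and Rhbdf1 (−2.04) lower. Cd40 (1.47) was higher, and Tnfrsf17 (−4.74) and Tnfrsf25 (−2.95) were lower. In ILC2 the decay factors Zfp36 (−1.78) and Zfp36l2 (−1.88) were lower in reload, 2 of 19 genes of these lists against 3.12% of all genes, and in type 1 dendritic cells Map3k14 (2.61), the kinase of the non-canonical NF-κB pathway, was higher, 1 of 31 against 0.749%. No gene of these lists was called for age.

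Between ages in macrophages the fold rule gave, among the 25 measured genes of TNF receptor signalling, 8 higher and 3 lower in old HU and 1 higher and 0 lower in old reload, against 30.5% and 9.04% of all genes in either direction. In control it gave 3 higher and 1 lower of 24, against 13.7%. In HU the 2 highest of the list were the kinase Map3k7 (1.92) and Tnfaip3 (A20, 1.40), which ends NF-κB signalling, and the 2 lowest were the death domain adaptors Fadd (−1.28) and Tradd (−1.10). The receptors Tnfrsf12a (1.71) and Fas (0.70) and the protease Adam17 (0.67) were also higher in old HU, and the receptors Tnfrsf23 (−1.74) and Tnfrsf17 (−0.78) and Rhbdf1 (−0.99) were lower. In control, Tnfrsf13b (1.10), the ligand Tnfsf13 (1.02) and Map3k14 (0.96) were among those higher in old, and Tnfrsf23 (−1.50) and Otulin (−0.77) were lower.

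The genes whose levels were most like each member's were sought over 62 combinations of class and library among 7924 genes, as a description without a test. Pearson's r of log2(CPM + 1) was 0.93 between Tnfsf11 and Cxcr6, 0.95 between Fasl and Eomes, 0.89 between Tnfrsf1a and Anxa2 and 0.84 between Tnfrsf1b and Cxcr4. It was 0.87 between Tnfsf12 and Epb41l1, 0.84 between Ltb and Rnf125, 0.77 between Tnfsf14 and Samsn1, 0.72 between Tnfsf9 and Vim and 0.69 between Tnf and Klf6. Between members it was 0.66 for Tnfsf11 and Ltb, 0.37 for Tnf and Tnfsf9 and −0.78 for Tnfsf12 and Ltb. The points share libraries and depth, and different classes make up most of the spread.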

How the data were processed

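CD45+ DAPI− cells of pooled soleus muscles were measured in 6 libraries, 1 for each age and treatment. The values deposited by the authors are raw UMI counts for each gene in each barcode, without normalization, for which the submitters' processing notes name Cell Ranger 3.1.0 and mm10. The library totals and the UMIs of a class set the precision, and intervals (exact 95% for Poisson or binomial counts) cover counting error only.

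Barcodes needed 200 genes or more and no more than 10% mitochondrial UMIs, and doublets marked by scrublet (scanpy 1.11.5, 0.8% per 1000 barcodes, 340 in all) were removed. Cells were clustered in Seurat 5.3.0 on 2000 variable genes, from which 46 genes of the TNF ligand and receptor families had been left out, with 30 principal components and a resolution of 0.8, giving 23 clusters. A name required 3 or more detected markers of a cell type, with thresholds set after the clusters were seen. The macrophage clusters led by Cd209f, by Hspa1b, by Ifit2 and by Gpnmb had 9, 7, 8 and 9 detected macrophage markers, but each had 0 among its 10 leading genes. The Il10 cluster had 10 detected and 1 among its leading genes. Unnamed clusters were led by Gm26917 and Malat1 (356 cells), by cycling genes such as Ube2c (290 cells) and by genes of both B cells and macrophages (184 cells).

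UMIs were summed per class and library and divided by the class total (CPM). Age (with treatment as a term) and reload against HU (with age as a term) were tested on sums of the 6 libraries with edgeR 4.0.16, with TMM factors and its default filter on low counts, at an adjusted p of 0.05. The scripts were tested on simulated data with known changes. Alternatives were other mitochondrial limits (5% and 20%), doublets kept, resolutions of 0.4 and 1.6, thinning to 2000 UMIs, other scalings and minimums, DESeq2 1.42.0, and leaving out libraries. Scripts ran in R 4.3.3 and in Python 3.11.15 (pandas 2.3.3, matplotlib 3.10.9, scipy 1.17.1, numpy 2.4.6). Of the gene identifiers, 31011 of 31053 matched GENCODE vM21.

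The members, the lists and the markers were chosen with earlier results of these data known. The genes named are the 10 members, the partner receptors of the ligands, the 2 highest and 2 lowest values among the genes of each other list that were past the rule or called, and, for members with at least 500 UMIs, the genes most like them among genes with at least 500 UMIs. Cultured cells and other assays of the study were not used here.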

Additional observations from a re-analysis of the deposited data

Results flagged for a closer look

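Each pattern here is a pair of log2 ratios past the fold rule whose signs were opposite under the same contrast. Every ratio rests on 1 library against 1, and the difference between the ratios was not tested. Groups of a single library leave no samples to set against each other within a group.

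Fasl in T cells was higher in old than in young in control (1.999) and lower in reload (−1.78), a difference of 3.78. Tnfsf9 in monocytes was higher in old in control (3.36) and lower in reload (−1.03), a difference of 4.39 in which the young control value rests on 4 UMIs. Tnfsf9 in type 1 dendritic cells was higher in old in HU (1.44) and lower in reload (−1.24), a difference of 2.68. Tnfrsf1a in type 2 dendritic cells was higher in old in HU (0.51) and lower in reload (−0.58), a difference of 1.09.

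Ltb went from higher in old control to lower in old HU in both of its leading classes. In γδ T cells the ratios were 0.74 and −0.79, a difference of 1.52, and in ILC2 they were 0.83 and −0.64, a difference of 1.47. The HU values rest on 24 young γδ T cells and 68 young ILC2. In neutrophils, Ltb was higher in reload than in HU in young (1.18) and lower in old (−0.66), a difference of 1.84. The old value was 0.15 at a limit of 20% mitochondrial UMIs.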

How the results depend on the processing

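Each group is 1 library, and depth limits the rarer classes. Of the member ratios past the fold rule, the number still past it of those measured was 73 of 82 at a limit of 20% mitochondrial UMIs, 72 of 79 at 5%, 77 of 88 with doublets kept, 79 of 83 and 84 of 87 at resolutions of 0.4 and 1.6, 76 of 88 with TMM factors, 71 of 88 with cells weighted equally, 66 of 66 at a minimum of 50 UMIs and 15 of 15 without barcodes in both control libraries. Ltb in neutrophils (reload over HU, old) turned to 0.15 at 20%, and the cause was not tested. With TMM factors the macrophage HU ratio of Tnf was 2.45. No paired analysis of replicates was possible because each group is 1 library and the labels number no replicates. The number that opens the titles is shared by the young and old library of a treatment, and the age test takes treatment as a term. Type 1 dendritic cells were not run at 20% (19 cells in young HU), nor ILC2 at 5% (19 cells in old reload). Leaving out single libraries and dropping shared barcodes were chosen after seeing the data.

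Members past the rule in macrophages became 1 for age in reload with cells weighted equally and 3 for reload over HU in old at 5% or at a resolution of 0.4, and over all classes 14 for reload over HU in young at a minimum of 50 UMIs. The class holding most UMIs of a ligand did not change in any of these settings. The macrophage share of Tnf was 74.3% at 20%, 75.9% at 5%, 73.8% with doublets, 77.8% and 71.5% at 0.4 and 1.6 and 78.3% thinned, and that of Tnfsf9 was 64.8%, 66.0%, 64.8%, 69.0%, 62.3% and 70.0% in the same order. Tnfsf11 in γδ T cells was 44.95% at 5%, 51.0% with doublets and 39.2% at 0.4, and Ltb there 24.2% at 0.4 and 32.7% thinned. In macrophages Tnfsf12 was 67.4% at 20%, 67.0% at 1.6 and 73.8% thinned, Tnfsf13b 55.1% thinned, and Tnfsf14 46.6% at 1.6 and 48.0% thinned.

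Genes called for age became 1 (doublets kept), 8 (DESeq2) and 32 (every gene tested) in macrophages, 26 in neutrophils and 24 in type 1 dendritic cells (every gene), 2 (DESeq2) and 6 (every gene) in type 2 dendritic cells, and in ILC2 1 (20%), 5 and 6 (0.4 and 1.6), 0 (DESeq2, 25 at an unadjusted p under 0.05) and 10 (every gene). For reload against HU they became 2144 in macrophages (every gene), 13 (20%), 1 (5%), 19 (DESeq2) and 43 (every gene) in neutrophils, 81 (5%), 83 (1.6), 155 (no TMM factors), 95 (DESeq2) and 358 (every gene) in type 1 dendritic cells, 0 (20%, 5% or doublets kept), 7 (0.4), 175 (DESeq2) and 640 (every gene) in type 2 dendritic cells, and 24 (20%), 18 (doublets), 40 (DESeq2) and 36 (every gene) in ILC2. With libraries left out, calls for age ran from 0 to 16 in macrophages, 1 to 56 in neutrophils, 2 to 34 in type 1 and 0 to 28 in type 2 dendritic cells and 4 to 18 in ILC2, and calls for reload from 113 to 2063, 0 to 123, 0 to 426, 0 to 498 and 50 to 152.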
